A study of Mus musculus with 12 samples.

Results

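Untreated spleens of lupus-prone mice were compared between 6 weeks of age, before symptoms, and 10 weeks of age, when the animals were symptomatic, over all expressed genes. The comparison takes the 4 libraries titled as untreated 6-week and the 4 titled as untreated 10-week samples, 8 of the 12 libraries of the series, chosen by their titles alone. Every mouse was a BXSB.Cg-Cd8atm1Mak Il15tm1Imx Yaa animal, called Yaa DKO. Both ages thus carried the Yaa chromosome and the targeted Cd8a and Il15 alleles, and no spleen without these alleles is compared here. The other 4 libraries, from mice of the same genotype and 10 weeks old that drank 2-deoxyglucose (2DG) at 6 g/L, entered the statistical fit to estimate the spread between libraries and are in no mean or fold change. Age and disease stage moved together in this design and cannot be told apart. The labels name separate samples and do not say that each is a separate mouse, so the p-values describe only how these samples vary, and that variation may be technical.

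Yaa is a translocation that places a copy of part of the X chromosome, with the RNA sensor gene Tlr7, on the Y chromosome, and male BXSB mice that carry it develop a systemic disease that resembles lupus. In such disease B cells activated by nucleic acid antigens and helped by T cells that make interleukin 21 become plasma cells, which secrete autoantibodies and load the endoplasmic reticulum with immunoglobulin. Natural killer cells and some CD8 T cells depend on interleukin 15, and CD8 T cells carry the coreceptor chains encoded by Cd8a and Cd8b1. The spleen also holds red pulp macrophages that recycle iron, dendritic cells, and, in mice, blood-forming cells of the red cell, platelet and neutrophil lineages.

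Library totals ran from 15596040 to 22480545 counts at 6 weeks and from 20692818 to 26079979 at 10 weeks. Levels are CPM, a gene's counts scaled to a common library total, with TMM factors that correct each total for a few very abundant genes. They are listed in replicate order, replicates 1 to 4 at 6 weeks first, against replicates 5 to 8 at 10 weeks. The pan-leukocyte gene Ptprc, the B cell genes Cd79a and Ms4a1, the T cell genes Cd3e and Cd4, the red pulp macrophage genes Spic, Vcam1 and Adgre1 and the splenic stroma genes Tlx1 and Nkx2-5 all had counts in all 8 libraries. The 10-week libraries were uneven. The biological coefficient of variation, edgeR's measure of spread between libraries, was 0.241 at 10 weeks, 0.249 at 10 weeks without replicate 8 and 0.128 at 6 weeks. It was 0.114 in the 2DG libraries, which enter the spread estimated in the fit of all 12 libraries. On the first principal component of log2 CPM, with 34.9% of the variance, replicates 5, 6 and 7 lay at 46.24, 30.25 and 27.65 and replicate 8 at -12.26, inside the range of -35.66 to -11.81 of the 6-week libraries. Replicate 6 lay apart on the second component, at -60.02 against -4.852 to 29.36 in the others. List counts are therefore given with and without replicate 8, and so are the printed log2 change and adjusted p of a gene where that library decides the call or moves the fold by over 1.5 times (the log2 change first, then the edgeR adjusted p). Replicate 8 was singled out by its levels in these same data, close to those at 6 weeks. Leaving it out therefore favours larger differences and smaller p-values. Values without it are a description and no separate support for a change. With any other untreated library left out instead, edgeR called 0 genes.

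**Figure D1:**
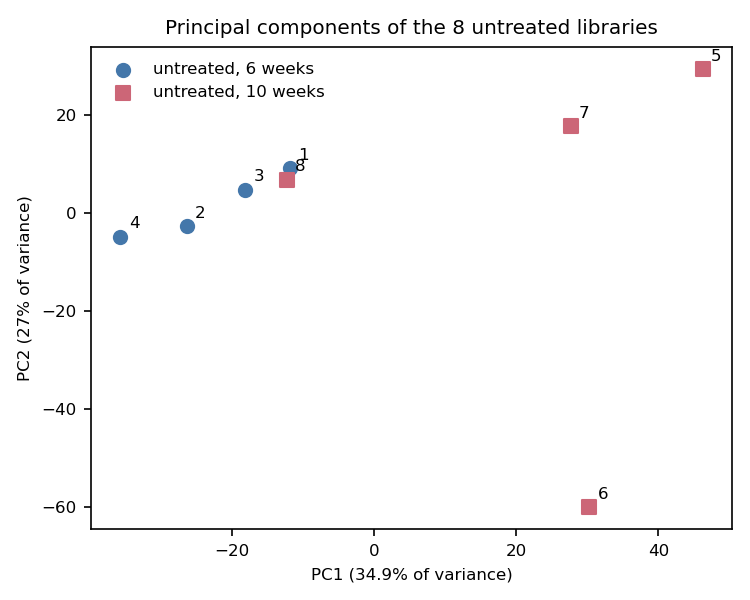
Each point is 1 untreated library, numbered by replicate, placed by the first 2 principal components of log2 CPM (share of variance on each axis, no unit). Replicate 8 lies among the 6-week libraries on the first component, and replicate 6 lies apart on the second.

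The labels name Cd8a and Il15 as targeted. Both were counted in every library, and counts summed over a gene do not show whether the transcript is whole or comes from the targeted allele. Cd8a (ENSMUSG00000053977, chromosome 6, 71373427 to 71379173, GRCm38 with GENCODE M21, as for all positions of genes here), a chain of the CD8 coreceptor, was read at 57.1, 56.4, 62.6 and 70.7 CPM against 30.4, 34.7, 27.7 and 37.7 CPM, and no 10-week library reached the lowest 6-week one. Cd8a fell with age (log2 change -0.92, SE 0.11, edgeR adjusted p = 0.0360). Cd8b1, the partner chain, was read at 2.13, 2.03, 1.91 and 2.45 CPM against 0.470, 0.892, 0.866 and 4.14 CPM (log2 change -0.39, SE 0.56, edgeR adjusted p = 0.763; -1.49 and 0.0274 without replicate 8). Replicates 5, 6 and 7 were below every 6-week library for Cd8b1 and replicate 8 was above them all, unlike Cd8a, which was low in replicate 8 too. Il15 was read at 5.49, 5.61, 5.60 and 5.03 CPM against 7.20, 6.86, 6.97 and 5.50 CPM (log2 change 0.28, SE 0.12, edgeR adjusted p = 0.258), with replicate 8 inside the 6-week range. Tlr7, on chromosome X and within the segment that Yaa duplicates, was read at 257, 202, 219 and 185 CPM against 188, 212, 214 and 211 CPM (log2 change -0.06, SE 0.09, edgeR adjusted p = 0.759), and the ages overlapped. The call of Cd8a was lost with the 8 untreated libraries alone in the fit (edgeR adjusted p = 0.139). It was also lost when any 1 of 10 libraries was left out, with an edgeR adjusted p between 0.0509 and 0.187. It was kept without 10-week replicate 8 (edgeR adjusted p = 0.00158) or without 2DG replicate 10 (0.0215). Over all alternatives the adjusted p of Cd8a ran from 1.1e-09 with DESeq2 to 0.724 in the edgeR test against a fold change of 1.5.

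Cd8a was the 1 gene of 18542 tested that passed an edgeR adjusted p of 0.05, a share of 0.00539%, and 0% passed as higher. At an unadjusted p under 0.05 there were 1717 higher genes (9.26%) and 1462 lower (7.88%). DESeq2 called 470 higher (2.59% of the 18117 genes to which it gave an adjusted p) and 212 lower (1.17%), limma voom with library weights 0 higher and 1 lower, and edgeR without 10-week replicate 8 called 858 higher (4.57% of 18773) and 705 lower (3.76%). Of the 682 DESeq2 calls 617 were among the 1563 calls without replicate 8, 90.5% of the first set and 39.5% of the second. With the 7 untreated libraries other than replicate 8 alone in the fit there were 331 higher and 169 lower genes. A second description was used beside the tests: a gene was counted as without overlap where all 4 levels at 10 weeks lay above, or all below, the 4 at 6 weeks. This held for 675 genes above (3.64%) and 616 below (3.32%). Without TMM scaling these were 311 (1.68%) and 1239 (6.68%), so that the share above went from 52.3% of the genes without overlap to 20.1%, with a shift of the median of all genes by -0.09 on the log2 scale. Directions are given relative to TMM scaling.

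**Figure D2:**
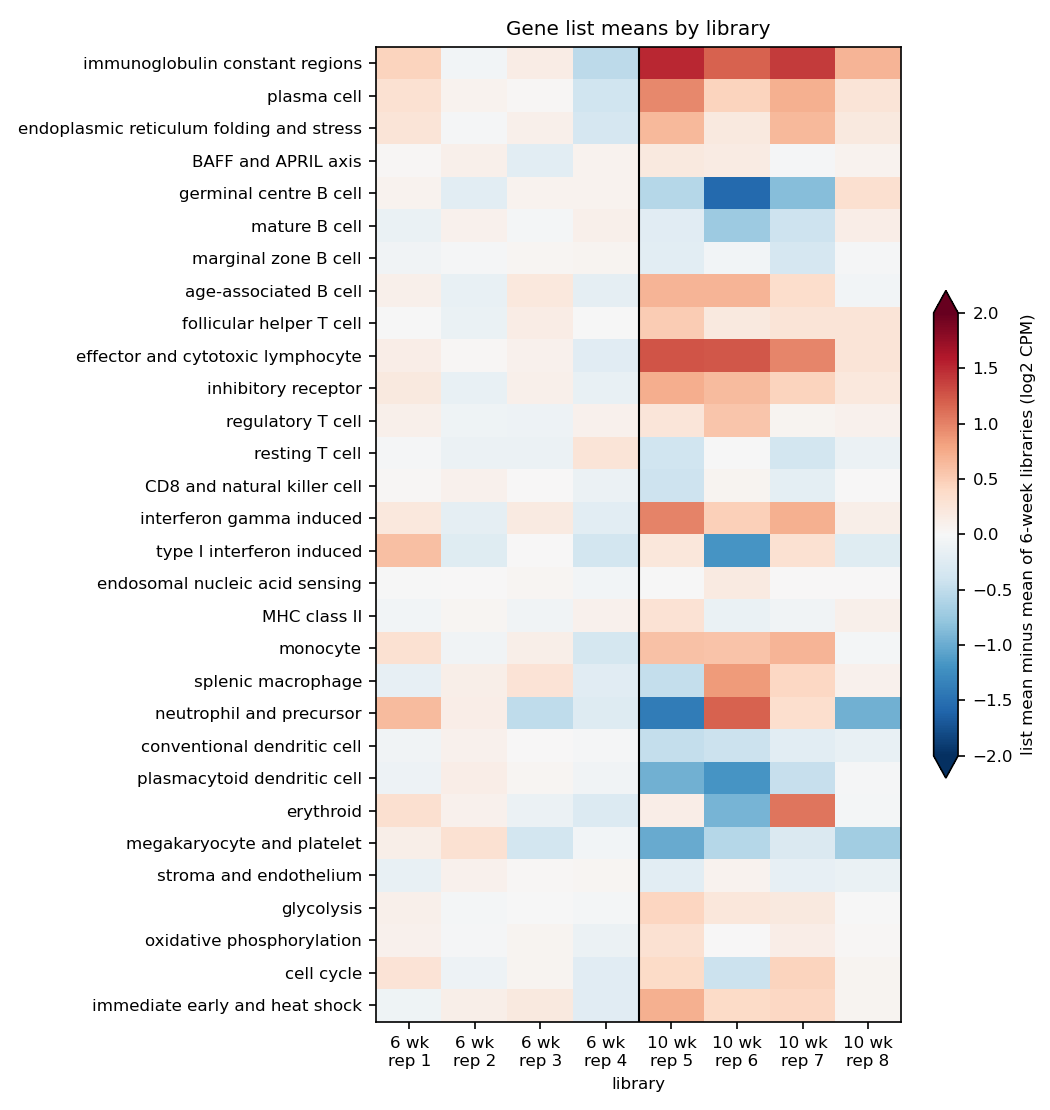
Rows are gene lists and columns the 8 untreated libraries; colour gives the list's mean log2 CPM in a library minus its mean over the 4 libraries at 6 weeks. Replicates 5, 6 and 7 are above the 6-week libraries for immunoglobulin, plasma cell, effector lymphocyte and interferon gamma lists and below them for germinal centre and mature B cell lists, while replicate 8 is near the 6-week level in most lists.

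In that plot of list means, the mean of 10-week replicate 8 lay within the 6-week range for 20 of 30 lists, against 3 for replicate 5, 6 for replicate 6 and 7 for replicate 7. Replicates 5, 6 and 7 were above the range in 16, 15 and 15 lists and below it in 11, 9 and 8. Bulk RNA cannot separate more cells of a type from more RNA per cell. The lists were written with earlier results of these data known. A list share that differs from that of all genes is thus a description and no separate support. No list member other than Cd8a passed in the edgeR fit of all libraries, so levels are given as they stand, each list beside the shares over all genes just given and the median log2 change of all genes, 0.01.

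The summed share of immunoglobulin counts was higher in all 10-week libraries than in any 6-week library. Immunoglobulin genes together took 4.94, 3.93, 3.73 and 2.79% of counts at 6 weeks and 10.7, 10.2, 8.97 and 5.11% at 10 weeks, a difference of 4.90 percentage points (two-sided exact permutation p = 0.0286, the smallest that 4 against 4 allow; adjusted over 6 shares 0.0857). Replicate 8 stood closest to the 6-week libraries. Ighg2c (ENSMUSG00000076612, chromosome 12, 113285325 to 113288932), the IgG2c constant region, was read at 6027, 2058, 2843 and 1837 CPM against 15565, 19361, 16901 and 6559 CPM (log2 change 2.19, SE 0.53, edgeR adjusted p = 0.111; 2.44 and 0.0243 without replicate 8). Every 10-week library was above every 6-week one, although replicate 8 exceeded 6-week replicate 1 by little. Ighg2b was read at 2801, 1916, 2118 and 1280 CPM against 7729, 5749, 5670 and 3375 CPM (log2 change 1.47, SE 0.35, edgeR adjusted p = 0.108; 1.66 and 0.0208 without replicate 8). Igkc, the kappa light chain constant region, was read at 11259, 8414, 7933 and 5816 CPM against 27966, 25220, 23262 and 11532 CPM (log2 change 1.40, SE 0.29, edgeR adjusted p = 0.0934; 1.61 and 0.00524 without replicate 8), again with replicate 8 closest to the 6-week libraries. Ighe, the IgE constant region, had the levels 10.8, 2.78, 11.1 and 3.56 CPM against 26.6, 26.2, 27.6 and 19.4 CPM. Iglc1, a lambda constant region, was read at 220, 211, 192 and 180 CPM against 766, 385, 434 and 246 CPM, and neither gene overlapped.

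The ages overlapped for Ighm and Ighd, which encode the IgM and IgD heavy chains that naive B cells carry. Ighm was read at 10211, 12580, 9325 and 8194 CPM against 20174, 14592, 5710 and 9894 CPM (log2 change 0.32, SE 0.33, edgeR adjusted p = 0.666), with replicate 5 highest and replicate 7 lowest of all 8 libraries. Ighd was read at 953, 1105, 1006 and 1137 CPM against 1008, 1062, 909 and 1155 CPM (log2 change -0.02, SE 0.09, edgeR adjusted p = 0.921). Ighg1 and Ighg3, named after their values were seen, were read at 391, 296, 1701 and 210 CPM against 2145, 3724, 5289 and 1107 CPM and at 1872, 505, 493 and 122 CPM against 5255, 3996, 5986 and 1255 CPM. Both overlapped, since 6-week replicate 3 for Ighg1 and 6-week replicate 1 for Ighg3 lay above 10-week replicate 8. Of the 13 constant region and J chain genes 5 had no overlap (38.5%, against 3.64% of all genes), all above, with a median log2 change of 1.19. For the immunoglobulin constant regions list edgeR called 0 of 13 higher (9 at an unadjusted p under 0.05), DESeq2 5 and edgeR without replicate 8 5. The heavy chain constant regions resemble each other in sequence, and the handling of reads that fit several of them is unknown here.

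As a share of heavy chain constant region counts, the 4 IgG genes took 47.9, 24.5, 39.7 and 25.6% at 6 weeks and 57.2, 66.7, 77.3 and 50.3% at 10 weeks, and all libraries at 10 weeks exceeded all at 6 weeks. Ighm took 44.1, 64.6, 51.7 and 60.9% at 6 weeks and 37.6, 29.6, 13.0 and 40.5% at 10 weeks, lower in all 10-week libraries. Within the light chains Igkc took 93.0, 92.0, 92.2 and 90.3% at 6 weeks and 95.4, 96.7, 96.2 and 92.5% at 10 weeks, where replicate 8 lay inside the 6-week range. These shares do not depend on the scaling between libraries, and they were not tested.

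**Figure D3:**
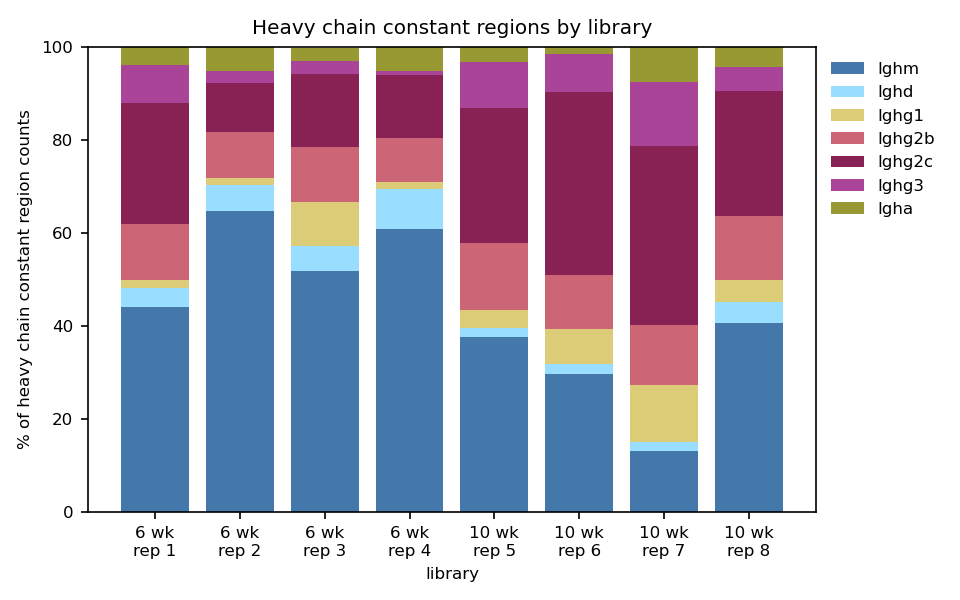
Bars give the percent of heavy chain constant region counts held by each class gene in each untreated library; Ighe, under 0.1% everywhere, is not drawn. The IgG genes together fill more of each bar at 10 weeks (50.3 to 77.3%) than at 6 weeks (24.5 to 47.9%).

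Most variable gene segments of the heavy and kappa chains had positive changes. Of 99 heavy chain variable genes tested 86 had positive changes, with a median log2 change of 1.30, and 18 lay above without overlap (18.2%) against 1 below. Positive changes were found for 89 of 97 kappa variable genes (median 1.45), and 24 lay above (24.7%). The mean log2 CPM over the tested heavy chain segments was 3.64 to 4.25 at 6 weeks and 5.49, 5.22, 5.41 and 4.25 in replicates 5 to 8, and over the kappa segments 4.06 to 4.74 and 6.21, 5.58, 5.91 and 4.66. Replicate 8 lay inside the 6-week range for both. edgeR called 0 heavy chain or kappa segments (51 heavy chain and 52 kappa segments higher and 3 heavy chain segments lower at an unadjusted p under 0.05). DESeq2 called 32 heavy chain and 30 kappa segments higher and none lower, and edgeR without replicate 8 called 31 and 27 higher and none lower. The 3 lambda variable genes tested had a median log2 change of 0.36, and -0.15 without replicate 8, with replicates 6 and 7 within the 6-week range of the list mean and replicates 5 and 8 above it. Segments are near-identical within families and can share reads, so single segments are not named.

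Plasma cell genes were higher in replicates 5, 6 and 7 and near the top of the 6-week range in replicate 8. Prdm1 (chromosome 10, 44437177 to 44528501), the gene of Blimp-1, a repressor that drives plasma cell formation, was read at 50.3, 39.1, 42.0 and 29.9 CPM against 68.2, 56.2, 71.6 and 53.1 CPM (log2 change 0.62, SE 0.18, edgeR adjusted p = 0.133; 0.70 and 0.0489 without replicate 8). Sdc1, the plasma cell surface proteoglycan CD138, was read at 39.3, 33.3, 30.6 and 21.6 CPM against 77.4, 54.3, 66.5 and 41.9 CPM (log2 change 0.94, SE 0.23, edgeR adjusted p = 0.106; 1.08 and 0.0152 without replicate 8). Neither gene overlapped, with replicate 8 the lowest at 10 weeks for both. Irf4, a factor that plasma cells need, and Ssr4, a subunit of the complex through which nascent proteins enter the endoplasmic reticulum, had no overlap either, at 268, 240, 228 and 199 CPM against 373, 290, 329 and 281 CPM for Irf4 and at 109, 98.8, 93.9 and 74.3 CPM against 209, 181, 173 and 112 CPM for Ssr4. Xbp1, the transcription factor of the secretory programme, overlapped because replicate 8 at 430 CPM lay under 6-week replicate 1 at 437 CPM (means 345 ± 77.9 and 597 ± 115 CPM, log2 change 0.79, SE 0.17, edgeR adjusted p = 0.0934; 0.92 and 0.00630 without replicate 8). All 14 of 14 plasma cell genes had positive changes, with a median log2 change of 0.63, and 4 had no overlap (28.6%). For the plasma cell list edgeR called 0 of 14 higher (9 at an unadjusted p under 0.05), DESeq2 8 and edgeR without replicate 8 8. Tnfrsf17, the APRIL receptor BCMA of plasma cells, was read at 3.63, 4.46, 2.87 and 2.70 CPM against 8.87, 3.71, 5.07 and 3.71 CPM. The cytokine gene Tnfsf13b (BAFF) and the receptors Tnfrsf13c and Tnfrsf13b overlapped too (log2 changes 0.45, -0.23 and -0.14, edgeR adjusted p = 0.348, 0.450 and 0.540; -0.41 and 0.0300 for Tnfrsf13c without replicate 8). Of the 5 BAFF and APRIL genes edgeR called 0, with 0 at an unadjusted p under 0.05, DESeq2 0, and edgeR without replicate 8 called 1 lower.

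Genes of protein folding in the endoplasmic reticulum had a list mean above the 6-week range in replicates 5 and 7 and within it in replicates 6 and 8, whereas that of the plasma cell genes was above it in replicate 6 as well. Sel1l and Edem1, both of the pathway that removes misfolded proteins, were read at 269, 232, 258 and 214 CPM against 393, 328, 418 and 286 CPM for Sel1l and at 533, 453, 481 and 343 CPM against 894, 643, 789 and 538 CPM for Edem1. Herpud1, of the same disposal pathway, was read at 194, 181, 178 and 132 CPM against 285, 308, 273 and 200 CPM. None of these overlapped between the ages, and their log2 changes were 0.55, 0.66 and 0.64 (edgeR adjusted p = 0.0911, 0.104 and 0.0934, and 0.00524, 0.0111 and 0.00620 without replicate 8). Sec61a1, of the channel into the organelle, was read at 224, 206, 208 and 183 CPM against 318, 254, 289 and 217 CPM (log2 change 0.39, SE 0.10, edgeR adjusted p = 0.112; 0.49 and 0.00923 without replicate 8). All 20 genes of the list had positive changes, with a median log2 change of 0.40 and 5 without overlap (25.0%). For the endoplasmic reticulum folding and stress list edgeR called 0 of 20 higher (14 at an unadjusted p under 0.05), DESeq2 7 and edgeR without replicate 8 9. The endoplasmic reticulum stress element (ERSE) is CCAAT followed by CCACG after 9 bases of any kind. It was searched on both strands in the 300 bases from 250 before to 50 after the gene start. It occurred in 7 of the 17 list members with a RefSeq promoter (41.2%) and in 0.137% of 27025 genes with one. A match is a description of the letters and not evidence of binding. The 3 printed here (RefSeq, GRCm38.p6) are the members with the match and the smallest p, and show the shared spacing, with the match in capitals (on the other strand in Creld2, where it reads as the reverse complement): Dnajc3 chr14:118937682-118937981, plus strand; Creld2 chr15:88819396-88819695, plus strand; Hspa5 chr2:34771840-34772139, plus strand.
Dnajc3: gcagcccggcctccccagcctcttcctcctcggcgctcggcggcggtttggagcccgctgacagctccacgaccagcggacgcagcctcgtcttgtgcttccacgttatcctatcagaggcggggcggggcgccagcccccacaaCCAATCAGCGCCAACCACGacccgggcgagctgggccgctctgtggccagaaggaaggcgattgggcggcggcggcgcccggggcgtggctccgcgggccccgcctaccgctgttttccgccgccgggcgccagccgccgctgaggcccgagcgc
Creld2: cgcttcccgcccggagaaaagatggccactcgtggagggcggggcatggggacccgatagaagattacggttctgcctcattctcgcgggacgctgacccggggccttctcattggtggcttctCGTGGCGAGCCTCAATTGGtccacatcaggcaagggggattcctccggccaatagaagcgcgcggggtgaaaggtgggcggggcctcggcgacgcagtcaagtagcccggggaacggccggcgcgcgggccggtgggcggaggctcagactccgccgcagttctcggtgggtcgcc
Hspa5: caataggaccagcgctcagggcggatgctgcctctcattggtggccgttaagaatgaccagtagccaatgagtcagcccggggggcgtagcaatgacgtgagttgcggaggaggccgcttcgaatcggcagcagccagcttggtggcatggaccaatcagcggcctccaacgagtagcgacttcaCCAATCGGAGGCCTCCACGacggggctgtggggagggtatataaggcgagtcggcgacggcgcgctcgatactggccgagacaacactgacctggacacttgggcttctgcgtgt

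These 3 genes were named after their values were seen. Dnajc3, an inhibitor of the stress kinase PERK, was read at 255, 227, 255 and 187 CPM against 301, 288, 359 and 256 CPM. Creld2, a secreted stress protein, was read at 150, 96.5, 109 and 63.2 CPM against 248, 151, 230 and 134 CPM. Hspa5, the chaperone BiP, was read at 1340, 1062, 1245 and 797 CPM against 1665, 1203, 2062 and 1324 CPM. Dnajc3 did not overlap, replicate 8 by a small margin, while Creld2 and Hspa5 overlapped through replicate 8 and, for Hspa5, replicate 6 as well (edgeR adjusted p = 0.135, 0.147 and 0.191, and 0.0276, 0.0425 and 0.0906 without replicate 8).

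The other B cell lists split the 10-week libraries. Germinal centre B cells mutate and select their antibody genes. Rgs13, a regulator of G protein signals found in them, named after its values were seen, was read at 24.4, 20.7, 22.5 and 27.3 CPM against 5.27, 0.470, 4.70 and 30.0 CPM (log2 change -1.22, SE 0.78, edgeR adjusted p = 0.465; -2.76 and 0.0178 without replicate 8). Replicates 5, 6 and 7 lay below every 6-week library, replicate 6 lowest, and replicate 8 lay above them all. The list mean was 5.20 to 5.48 log2 CPM at 6 weeks and 4.84, 3.85, 4.55 and 5.72 in replicates 5 to 8. Bcl6, the germinal centre repressor, was read at 101, 110, 122 and 127 CPM against 88.5, 64.4, 89.4 and 129 CPM, and Efnb1, an ephrin ligand, at 18.8, 19.3, 20.1 and 19.9 CPM against 11.4, 10.1, 12.0 and 19.1 CPM, each with replicates 5, 6 and 7 lowest. Fas, a death receptor, went the other way at 29.4, 20.9, 28.7 and 24.1 CPM against 40.6, 30.2, 31.9 and 31.7 CPM and was the 1 of 12 members without overlap, a share of 8.33%. Plxnb2, a semaphorin receptor, overlapped at 166 ± 14.4 and 192 ± 16.5 CPM. edgeR called 0 of the 12 in either direction (2 higher and 1 lower at an unadjusted p under 0.05), DESeq2 1 lower, and edgeR without replicate 8 called 7 lower and 0 higher, with a median that went from -0.38 to -0.77.

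Mature B cell genes had the same pattern with smaller differences. Cr2, the complement receptor CD21, named after its values were seen, was read at 635, 776, 717 and 818 CPM against 394, 377, 288 and 957 CPM. Replicates 5, 6 and 7 were below the lowest 6-week library and replicate 8 was again above all others. Ebf1, a B lineage transcription factor, Cd37, a tetraspanin, and Blk, a kinase of the B cell receptor, were lower in replicates 5, 6 and 7 than in any 6-week library (log2 changes -0.36, -0.31 and -0.34; edgeR adjusted p = 0.198, 0.237 and 0.262, and 0.0152, 0.0173 and 0.0158 without replicate 8). Of 16 genes 15 had negative changes and none was without overlap. edgeR called 0 (4 lower at an unadjusted p under 0.05) and DESeq2 0, and edgeR without replicate 8 called 9 lower. Among marginal zone B cell genes Dtx1, a Notch target, was read at 113, 126, 111 and 161 CPM against 58.0, 85.0, 44.9 and 133 CPM, and Cd9, a tetraspanin, at 88.5, 85.4, 67.9 and 76.9 CPM against 61.1, 70.5, 75.0 and 62.5 CPM. S1pr3, a sphingosine receptor of these cells, overlapped too, and none of the 8 was without overlap or called by edgeR or DESeq2, with 3 lower at an unadjusted p under 0.05. Without replicate 8 edgeR called 1 of them lower.

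All 6 age-associated B cell genes had positive changes, with a median log2 change of 0.42 and none without overlap. Tbx21 is also in the effector lymphocyte list and Fcrl5 in the marginal zone list, so these genes are not particular to age-associated B cells. Cxcr3, a chemokine receptor also carried by activated T cells, was read at 25.2, 18.4, 22.8 and 16.4 CPM against 39.9, 40.1, 39.9 and 21.0 CPM. Tbx21, the factor T-bet, was read at 15.0, 10.6, 17.3 and 11.2 CPM against 36.0, 19.5, 22.1 and 14.9 CPM, Itgax, the integrin chain CD11c, at 108, 108, 133 and 109 CPM against 167, 164, 117 and 104 CPM, and Fcrl5, an Fc receptor-like protein, at 33.4, 26.4, 47.3 and 27.6 CPM against 60.6, 70.8, 34.6 and 33.8 CPM. Replicate 8 lay inside the 6-week range for Cxcr3, Tbx21 and Fcrl5 and below it for Itgax. edgeR called 0 (2 higher at an unadjusted p under 0.05), DESeq2 1 higher, and edgeR without replicate 8 1 higher.

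Of the effector lymphocyte list, Eomes and Ccl5 were among the 12 largest positive changes under the rule for named genes. Eomes (chromosome 9, 118478212 to 118486132), a T-box factor of effector and memory lymphocytes, was read at 3.01, 2.08, 2.06 and 2.88 CPM against 6.99, 11.8, 10.1 and 5.07 CPM (log2 change 1.76, SE 0.29, edgeR adjusted p = 0.0812; 1.94 and 0.00308 without replicate 8). Gzmk, a granule protease, was read at 0.930, 1.64, 0.813 and 0.675 CPM against 6.26, 12.6, 8.37 and 1.53 CPM (log2 change 2.80, SE 0.53, edgeR adjusted p = 0.0818; 3.14 and 0.000974 without replicate 8). Eomes was without overlap, and for Gzmk replicate 8 fell inside the 6-week range while replicates 5, 6 and 7 were above it. Ccl5 and Ccl4, chemokines of activated lymphocytes, were read at 8.46, 12.8, 8.37 and 9.63 CPM against 25.8, 23.1, 18.5 and 17.5 CPM for Ccl5 and at 1.42, 0.663, 1.05 and 0.368 CPM against 4.12, 3.94, 3.51 and 1.28 CPM for Ccl4, the first without overlap. Ifng (chromosome 10, 118441046 to 118445892), interferon gamma itself, was read at 0.886, 0.840, 0.957 and 0.798 CPM against 4.17, 1.27, 2.43 and 1.28 CPM (log2 change 1.37, SE 0.42, edgeR adjusted p = 0.147; 1.58 and 0.0375 without replicate 8), low but without overlap, from 13 to 20 counts per library at 6 weeks and 27 to 80 at 10 weeks. Gzmb, a cytotoxic protease named after its values were seen, was read at 0.886, 0.707, 0.478 and 0.491 CPM against 5.27, 2.58, 1.69 and 0.853 CPM. Counts per library were low at 6 weeks for Gzmk (11 to 37), Ccl4 (6 to 32) and Gzmb (8 to 20). At 10 weeks they were 36 to 269, 30 to 85 and 20 to 101. Of the 14 genes 13 were positive with a median log2 change of 1.12, and 3 had no overlap (21.4%). For the effector and cytotoxic lymphocyte list edgeR called 0 of 14 higher (12 at an unadjusted p under 0.05), DESeq2 7 and edgeR without replicate 8 9.

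The means of the inhibitory receptor and follicular helper T cell lists lay above the 6-week range in all 4 libraries at 10 weeks, replicate 8 included. For the inhibitory receptor list the margin of replicate 8 was small, at 4.03 log2 CPM against 4.00 in 6-week replicate 1. The lists are not separate, since Pdcd1 belongs to both. Pdcd1, the receptor PD-1, was read at 19.0, 12.1, 18.2 and 14.3 CPM against 43.8, 23.1, 25.0 and 21.1 CPM and Ctla4 at 2.44, 1.24, 1.72 and 1.84 CPM against 3.29, 4.51, 3.18 and 3.11 CPM, both without overlap. Tox, a factor of chronically stimulated T cells, was read at 17.7, 12.1, 15.4 and 16.1 CPM against 29.1, 22.1, 19.1 and 20.4 CPM, again without overlap. Tigit and Lag3 overlapped, at 15.7, 12.6, 13.0 and 8.84 CPM against 41.4, 25.3, 25.7 and 14.5 CPM for Tigit and at 21.7, 17.0, 26.5 and 15.8 CPM against 66.7, 31.2, 34.6 and 24.8 CPM for Lag3, with replicate 8 inside the 6-week range. Of 8 inhibitory receptor genes 6 had positive and 2 negative changes, with a median log2 change of 0.69. Above without overlap were 3 (37.5%). Without TMM scaling 2 lay above and 1 below. Leaving out replicate 8 gave 5 above and 1 below, when the shares over all genes were 9.22% above and 10.3% below. For the inhibitory receptor list edgeR called 0 of 8 higher (6 at an unadjusted p under 0.05), DESeq2 3 and edgeR without replicate 8 3. Icos (chromosome 1, 60977927 to 61000320), a costimulatory receptor of follicular helper T cells, was read at 5.18, 3.71, 5.17 and 4.54 CPM against 10.5, 7.75, 9.94 and 6.99 CPM (log2 change 0.92, SE 0.16, edgeR adjusted p = 0.0815; 1.02 and 0.00584 without replicate 8), with all 4 libraries at 10 weeks above the 6-week range. Sh2d1a, the adaptor SAP, was read at 7.00, 6.01, 6.60 and 7.79 CPM against 9.81, 10.8, 8.13 and 7.84 CPM, and Il21, the cytokine by which these cells help B cells, at 9.17, 6.32, 12.9 and 5.28 CPM against 29.9, 14.6, 19.3 and 10.5 CPM (log2 change 1.13, SE 0.38, edgeR adjusted p = 0.175). Only 10-week replicate 8 overlapped the 6-week range for Il21, under 6-week replicate 3. Of 11 tested follicular helper genes 8 had positive and 3 negative changes, with a median log2 change of 0.24, and 3 were without overlap (27.3%). For the follicular helper T cell list edgeR called 0 of 11 higher (5 at an unadjusted p under 0.05), DESeq2 2 and edgeR without replicate 8 1 higher and 2 lower. The 2 lower ones were Bcl6 and Cxcr5, which B cells also express (edgeR adjusted p = 0.0232 and 0.0406 without replicate 8).

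In the regulatory T cell list Ikzf2, the factor Helios, was read at 66.4, 59.5, 75.2 and 60.2 CPM against 93.0, 77.5, 88.0 and 77.9 CPM and Tnfrsf9, the receptor 4-1BB, at 5.94, 5.75, 5.79 and 6.38 CPM against 10.3, 7.18, 6.68 and 7.33 CPM, without overlap; Tnfrsf4, the receptor OX40, overlapped at 12.5, 10.2, 10.4 and 10.4 CPM against 21.8, 19.1, 14.9 and 12.0 CPM. Of 9 genes 3 were without overlap (33.3%), and 1 without TMM scaling (11.1%). Ctla4 is among the 3 and was also counted in the inhibitory receptor list. The list mean of replicates 7 and 8 lay within the 6-week range. For the regulatory T cell list edgeR called 0 of 9 higher (3 at an unadjusted p under 0.05), DESeq2 2 and edgeR without replicate 8 2. Of 14 resting T cell genes 10 had negative changes. Ccr7, the homing receptor of naive T cells, was read at 94.3, 106, 86.8 and 115 CPM against 79.7, 60.2, 71.0 and 82.7 CPM (log2 change -0.45, SE 0.11, edgeR adjusted p = 0.104; -0.51 and 0.0228 without replicate 8), without overlap. Lef1 and Satb1, transcription factors of naive T cells, were read at 35.8, 34.7, 33.1 and 54.9 CPM against 14.6, 29.1, 18.8 and 30.7 CPM for Lef1 and at 188, 172, 162 and 195 CPM against 84.6, 125, 119 and 159 CPM for Satb1, also without overlap. S1pr1, the receptor that lets T cells leave the tissue, overlapped through replicate 8 alone at 200 ± 23.1 and 149 ± 23.3 CPM. Bulk RNA does not show which cells these transcripts came from. Cd3e, a chain common to T cells and named after its values were seen, was read at 56.8, 48.4, 51.6 and 67.3 CPM against 63.9, 66.2, 50.5 and 57.6 CPM (log2 change 0.09, SE 0.12, edgeR adjusted p = 0.760). Of these genes 3 lay below without overlap (21.4%, against 3.32% of all genes), with a median log2 change of -0.12. For the resting T cell list edgeR called 0 of 14 lower (5 at an unadjusted p under 0.05), DESeq2 3 and edgeR without replicate 8 3.

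Beside Cd8a, the list of CD8 and natural killer genes held Klrd1, the receptor chain CD94, at 12.7, 12.6, 10.0 and 10.9 CPM against 4.07, 5.92, 7.63 and 7.80 CPM (log2 change -0.86, SE 0.20, edgeR adjusted p = 0.0997; -0.97 and 0.0214 without replicate 8), below without overlap. Il2rb, the receptor chain shared by interleukins 2 and 15, went the other way at 60.2, 60.2, 57.0 and 51.1 CPM against 100, 126, 88.7 and 62.8 CPM (log2 change 0.72, SE 0.18, edgeR adjusted p = 0.108; 0.88 and 0.00524 without replicate 8), and so did Il15ra, the private interleukin 15 receptor chain, at 18.3, 17.9, 17.2 and 12.6 CPM against 26.5, 43.0, 23.9 and 20.0 CPM (log2 change 0.77, SE 0.21, edgeR adjusted p = 0.118; 0.91 and 0.0170 without replicate 8). Both were without overlap. Of the 9 genes of this list 4 had positive and 5 negative changes, with a median log2 change of -0.28. Above without overlap were 2 (22.2%), and 2 lay below (22.2%). edgeR called 0 of them higher and 1 lower, Cd8a (3 higher and 2 lower at an unadjusted p under 0.05). DESeq2 called 2 higher and 2 lower, and edgeR without replicate 8 called 2 higher and 3 lower. Klrk1, the receptor NKG2D, named after its values were seen, was read at 11.1, 12.0, 10.6 and 9.88 CPM against 12.7, 13.7, 11.2 and 9.46 CPM, with replicates 5 and 6 above the 6-week range and replicate 8 below it. Cd7, a surface protein of T and natural killer cells, was among the 12 largest negative changes, at 13.5, 14.8, 11.6 and 14.7 CPM against 3.91, 3.52, 7.47 and 8.44 CPM (log2 change -1.22, SE 0.25, edgeR adjusted p = 0.0934; -1.45 and 0.00720 without replicate 8).

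**Figure D4:**
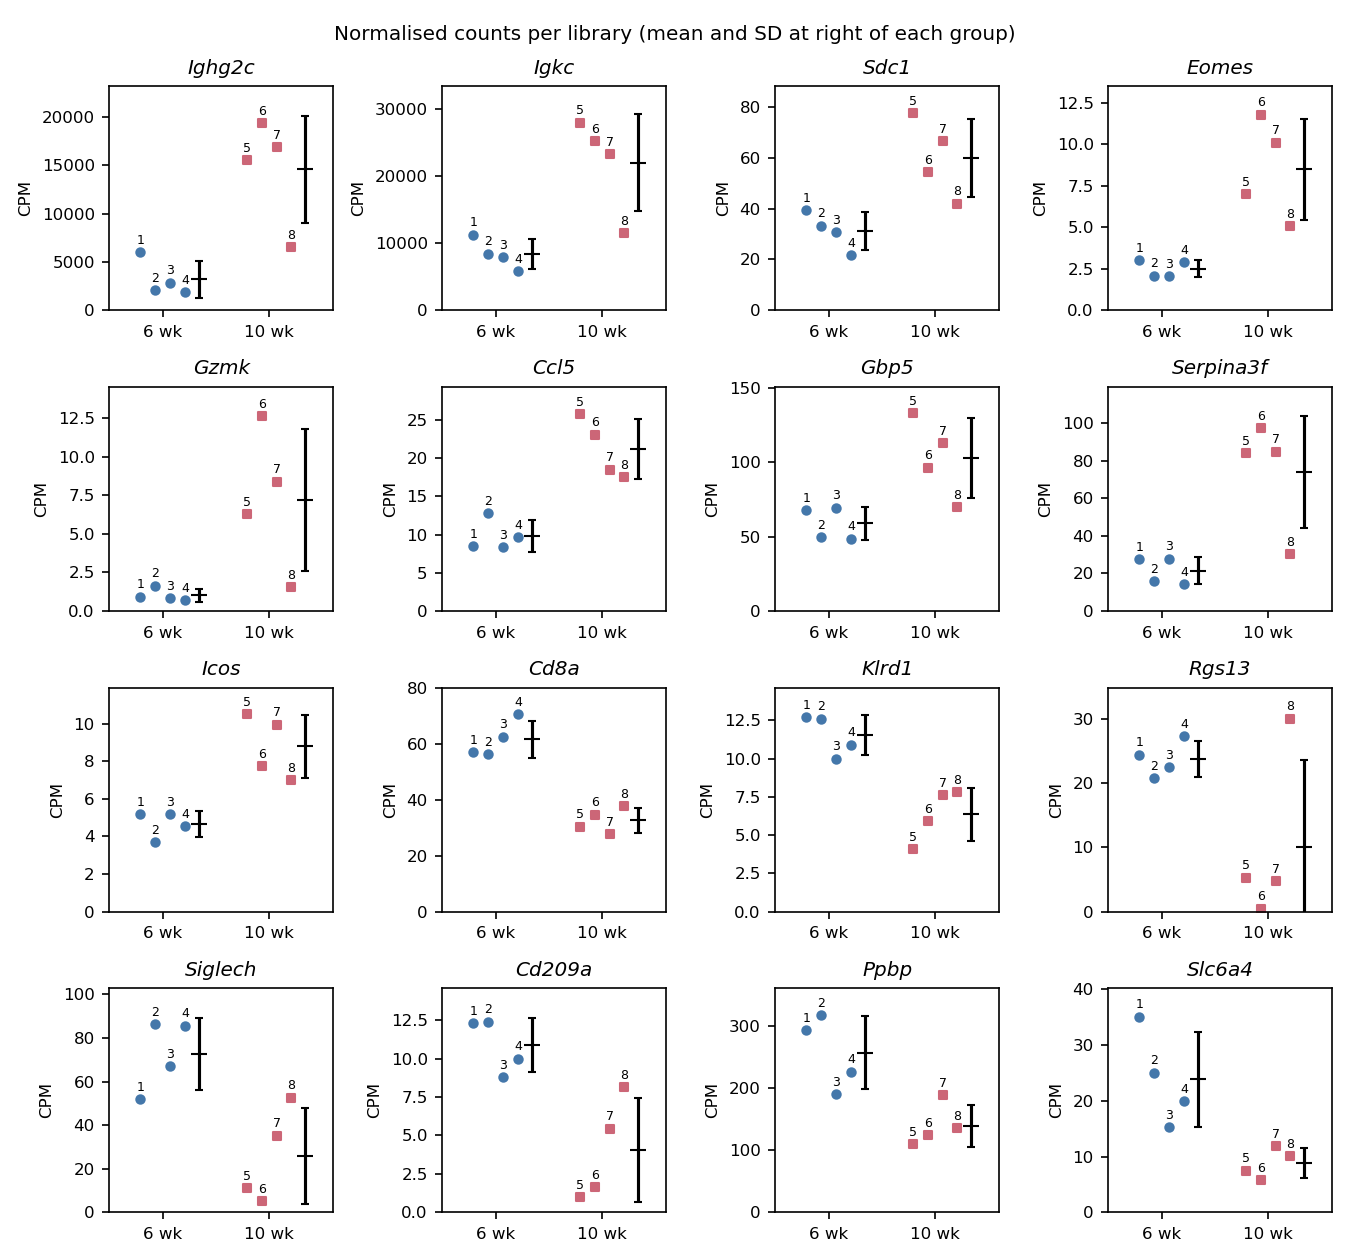
Panels give CPM per library for 16 genes (circles, 6 weeks; squares, 10 weeks; numbers are replicates), with the mean and SD of each group of 4 at its right; each vertical axis starts at 0. Replicate 8 is the lowest 10-week library for Ighg2c, Igkc, Sdc1, Eomes, Gzmk and Serpina3f, and for Rgs13 it is the highest of all 8, while for Cd8a it lies with its own age.

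Genes induced by interferon gamma were higher in replicates 5, 6 and 7, with replicate 8 within or close to the 6-week range. Gbp5 and Gbp3, guanylate-binding GTPases of cell defence, were read at 68.0, 49.7, 69.5 and 48.6 CPM against 133, 96.5, 113 and 69.8 CPM for Gbp5 and at 71.0, 61.2, 70.5 and 54.1 CPM against 133, 94.3, 105 and 70.5 CPM for Gbp3. Irf1, an early transcription factor of the response, was read at 175, 157, 190 and 162 CPM against 299, 256, 245 and 188 CPM (log2 change 0.53, SE 0.12, edgeR adjusted p = 0.0947; 0.64 and 0.00531 without replicate 8), and Irgm1, an immunity-related GTPase, at 18.3, 13.2, 18.2 and 11.8 CPM against 27.4, 23.9, 25.6 and 17.0 CPM. Gbp5 was without overlap, and for the other 3 genes replicate 8 alone overlapped. Cxcl9, a chemokine that attracts CXCR3-bearing cells, and Iigp1, another immunity-related GTPase, were named after their values were seen and read at 138, 73.7, 97.3 and 61.5 CPM against 420, 119, 254 and 85.9 CPM for Cxcl9 and at 118, 65.3, 132 and 55.7 CPM against 363, 282, 259 and 104 CPM for Iigp1. Of 22 genes 21 were positive with a median log2 change of 0.60. For the interferon gamma induced list edgeR called 0 of 22 higher (21 at an unadjusted p under 0.05), DESeq2 9 and edgeR without replicate 8 15. Only 2 were without overlap (9.09%), and without replicate 8 there were 19 of 22, when the share was 9.22% of all genes.

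The promoters of this list were searched for the interferon-stimulated response element (ISRE, TTTC, 2 bases of any kind, TTTC) and the gamma-activated site (GAS, TTC, 3 bases of any kind, GAA) on both strands of the same 300-base windows; the patterns share letters and may overlap. Of 16 members with a RefSeq promoter 9 held an ISRE match (56.2%, against 3.99% of all genes with one) and 7 a GAS match (43.8% against 9.55%). For the type I interferon list the counts were 8 and 3 of 15. The 4 members with a match and the smallest p are shown so that the 2 kinds of element can be seen, with matches in capitals (RefSeq, GRCm38.p6; those on the other strand, as in Irgm1, read as the reverse complement): Irf1 chr11:53769764-53770063, plus strand; Gbp5 chr3:142496684-142496983, plus strand; Irgm1 chr11:48871371-48871670, minus strand; Gbp3 chr3:142559794-142560093, plus strand.
Irf1: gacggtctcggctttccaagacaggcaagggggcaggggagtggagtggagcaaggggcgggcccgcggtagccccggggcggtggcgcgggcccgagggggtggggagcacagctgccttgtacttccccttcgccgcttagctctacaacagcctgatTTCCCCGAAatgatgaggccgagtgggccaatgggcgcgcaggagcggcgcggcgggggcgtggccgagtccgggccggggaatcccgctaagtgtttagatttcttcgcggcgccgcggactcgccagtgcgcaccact
Gbp5: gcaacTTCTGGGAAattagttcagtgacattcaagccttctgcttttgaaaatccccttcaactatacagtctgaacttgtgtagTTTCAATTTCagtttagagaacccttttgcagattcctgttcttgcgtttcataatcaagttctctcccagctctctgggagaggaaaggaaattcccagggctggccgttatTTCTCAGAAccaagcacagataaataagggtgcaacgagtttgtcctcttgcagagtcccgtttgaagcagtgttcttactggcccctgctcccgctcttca
Irgm1: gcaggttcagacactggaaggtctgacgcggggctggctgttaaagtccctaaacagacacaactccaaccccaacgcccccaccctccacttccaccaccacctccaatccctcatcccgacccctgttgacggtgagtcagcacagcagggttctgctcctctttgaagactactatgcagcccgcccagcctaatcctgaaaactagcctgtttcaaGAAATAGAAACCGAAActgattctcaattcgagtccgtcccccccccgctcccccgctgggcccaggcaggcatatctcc
Gbp3: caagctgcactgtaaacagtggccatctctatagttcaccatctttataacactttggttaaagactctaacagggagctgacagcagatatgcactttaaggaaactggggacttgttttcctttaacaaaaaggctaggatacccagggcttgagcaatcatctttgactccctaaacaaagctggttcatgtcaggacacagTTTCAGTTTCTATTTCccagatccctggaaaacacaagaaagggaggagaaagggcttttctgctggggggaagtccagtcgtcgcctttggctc

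In these windows Irf1 held 1 GAS match, Gbp5 held 1 ISRE and 2 GAS matches, and Irgm1 and Gbp3 held 2 ISRE matches each that run into one another. The largest positive change under the rule for named genes was that of Serpina3f, a serine protease inhibitor induced by interferon, at 27.6, 16.0, 27.9 and 14.4 CPM against 84.1, 97.6, 84.9 and 30.1 CPM (log2 change 1.78, SE 0.42, edgeR adjusted p = 0.110; 2.05 and 0.00995 without replicate 8). Its neighbour Serpina3g was read at 182, 128, 210 and 132 CPM against 473, 427, 376 and 217 CPM (log2 change 1.19, SE 0.27, edgeR adjusted p = 0.0975; 1.39 and 0.00887 without replicate 8). The Serpina3 genes are close copies that can share reads, so the split between them is uncertain. Ubd, a ubiquitin-like protein induced by inflammatory cytokines, was read at 15.1, 8.00, 12.1 and 10.1 CPM against 58.3, 20.0, 25.7 and 15.7 CPM (log2 change 1.39, SE 0.41, edgeR adjusted p = 0.150; 1.61 and 0.0389 without replicate 8). None of the 3 genes overlapped, as the rule that chose them required.

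Type I interferon genes showed no common direction with age. Mx2, an antiviral GTPase, was read at 16.6, 9.90, 9.47 and 9.39 CPM against 6.42, 2.49, 7.42 and 8.23 CPM and Mx1 at 47.9, 25.6, 28.8 and 25.4 CPM against 23.2, 9.30, 25.9 and 25.7 CPM. Usp18, a brake on the type I receptor, was read at 38.8, 22.0, 24.1 and 22.8 CPM against 23.3, 13.7, 25.6 and 21.1 CPM, and Zbp1, a nucleic acid sensor, at 82.7, 45.1, 62.9 and 44.9 CPM against 128, 57.6, 89.1 and 60.3 CPM. Mx2 was the 1 gene of the list without overlap, and for Mx2, Mx1 and Usp18, 6-week replicate 1 was the highest library and 10-week replicate 6 the lowest. The list mean was 5.86, 5.03, 5.27 and 4.90 log2 CPM at 6 weeks and 5.49, 4.09, 5.57 and 5.03 at 10 weeks. Of 23 genes 9 were positive and 14 negative, with a median log2 change of -0.16; edgeR called 0 with and without replicate 8 (1 lower at an unadjusted p under 0.05), and DESeq2 0. Among endosomal sensing genes Tlr8, an RNA sensor, was read at 40.6, 36.4, 44.7 and 25.8 CPM against 34.0, 117, 54.7 and 38.5 CPM, highest in replicate 6. Myd88, the adaptor of these receptors, was read at 48.9, 45.8, 46.9 and 45.8 CPM against 65.8, 66.4, 51.6 and 45.9 CPM. Irf5 and Tlr3 overlapped (edgeR adjusted p = 0.348 and 0.625). Of the 10 sensing genes edgeR called 0 (1 higher at an unadjusted p under 0.05), DESeq2 0 and edgeR without replicate 8 1 higher. Of 8 MHC class II genes, which present antigen to helper T cells, edgeR called 0 (1 higher and 1 lower at an unadjusted p under 0.05), DESeq2 0 and edgeR without replicate 8 1 lower. H2-Eb1 was read at 1294, 1359, 1266 and 1337 CPM against 1945, 1386, 1386 and 1369 CPM, without overlap, and H2-Aa at 1695, 1846, 1664 and 1799 CPM against 2350, 1910, 1754 and 1860 CPM, both highest in replicate 5. H2-Ob, a chain of a regulator that B cells express, was read at 569, 602, 560 and 642 CPM against 462, 299, 431 and 581 CPM, with replicates 5, 6 and 7 lowest, and H2-DMa overlapped at 153 ± 9.19 and 176 ± 21.9 CPM.

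Among monocyte genes Fcgr1, the high-affinity IgG receptor, was read at 9.61, 8.62, 8.99 and 4.97 CPM against 26.6, 29.6, 17.7 and 7.63 CPM (log2 change 1.33, SE 0.35, edgeR adjusted p = 0.122; 1.61 and 0.00410 without replicate 8). Ccl8, a monocyte chemokine, was read at 8.86, 3.62, 2.97 and 0.982 CPM against 63.2, 8.31, 19.1 and 6.48 CPM (log2 change 2.53, SE 0.78, edgeR adjusted p = 0.161; 2.85 and 0.0488 without replicate 8), with replicate 5 highest and 6-week replicate 1 above replicates 6 and 8. The log2 change of Ccl8 was 1.44 without replicate 5 and 3.23 without 6-week replicate 1. Fcgr4, a receptor for IgG2 classes, was read at 27.0, 18.3, 86.3 and 13.5 CPM against 111, 196, 56.9 and 31.6 CPM. Cd14, a sensor of bacterial lipid, overlapped (log2 change 0.35, edgeR adjusted p = 0.475). None of 12 tested monocyte genes was without overlap. For the monocyte list edgeR called 0 of 12 higher (2 at an unadjusted p under 0.05), DESeq2 2 and edgeR without replicate 8 2. In the macrophage list the 3 genes of complement C1q led, with C1qa at 169, 148, 172 and 118 CPM against 300, 391, 276 and 156 CPM, and C1qb and C1qc in the same order of libraries at 10 weeks (log2 changes 0.89, 0.85 and 0.81; edgeR adjusted p = 0.112, 0.157 and 0.156, and 0.00274, 0.00935 and 0.0108 without replicate 8). Vcam1, an adhesion molecule of red pulp macrophages and endothelium, was read at 530, 587, 520 and 435 CPM against 387, 1289, 704 and 595 CPM, highest in replicate 6 and lowest in replicate 5. The list mean of replicates 5 to 8 was 6.49, 7.82, 7.39 and 7.06 log2 CPM against 6.75 to 7.25 at 6 weeks, so the 10-week libraries lay on both sides. For the splenic macrophage list edgeR called 0 of 16 higher (3 at an unadjusted p under 0.05), DESeq2 3 and edgeR without replicate 8 3, and none was without overlap.

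The mean of the conventional dendritic cell list lay below the 6-week range in all 4 libraries at 10 weeks. Clec9a (chromosome 6, 129408862 to 129424763), a receptor for dead cells on cross-presenting dendritic cells, was read at 29.9, 44.7, 37.9 and 38.8 CPM against 19.4, 25.7, 23.4 and 29.3 CPM (log2 change -0.63, SE 0.13, edgeR adjusted p = 0.0934; -0.73 and 0.0100 without replicate 8), and Flt3, the receptor for their growth factor, at 43.7, 46.5, 43.3 and 49.9 CPM against 33.1, 38.9, 32.3 and 41.7 CPM. Cd209a, a lectin receptor of dendritic cells, had the second largest negative change under the same rule, at 12.3, 12.4, 8.80 and 10.0 CPM against 0.991, 1.64, 5.44 and 8.14 CPM (log2 change -1.40, SE 0.48, edgeR adjusted p = 0.189; -1.98 and 0.0258 without replicate 8). All 3 genes were without overlap, with replicate 8 closest to the 6-week libraries, and Clec4a4, another lectin, overlapped through replicate 8. Of 11 genes 9 were negative and 3 without overlap (27.3%). For the conventional dendritic cell list edgeR called 0 of 11 lower (4 at an unadjusted p under 0.05), DESeq2 2 and edgeR without replicate 8 4. Siglech, a lectin of plasmacytoid dendritic cells, which make type I interferon, was read at 51.9, 86.2, 67.0 and 85.7 CPM against 11.0, 5.21, 35.2 and 52.6 CPM (log2 change -1.48, SE 0.58, edgeR adjusted p = 0.232; -2.07 and 0.0561 without replicate 8). Ccr9, their homing receptor, was read at 23.1, 30.2, 25.8 and 29.2 CPM against 10.1, 9.39, 15.3 and 26.9 CPM. In both genes replicates 5, 6 and 7 lay below all 6-week libraries, and replicate 8 was inside their range. Ly6d and Klk1 overlapped (log2 changes -0.21 and -1.20, edgeR adjusted p = 0.526 and 0.327; -2.17 and 0.0404 for Klk1 without replicate 8). Of the 6 plasmacytoid genes 5 were negative, with none without overlap. For the plasmacytoid dendritic cell list edgeR called 0 of 6 lower (2 at an unadjusted p under 0.05), DESeq2 0 and edgeR without replicate 8 2.

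Platelet and megakaryocyte genes were lower in 10-week replicates 5, 6 and 8 than in any 6-week library by their list mean, while replicate 7 lay within the 6-week range. Ppbp, a platelet chemokine, was read at 293, 317, 190 and 226 CPM against 110, 124, 188 and 135 CPM (log2 change -0.88, SE 0.25, edgeR adjusted p = 0.137) and Pf4, platelet factor 4, at 60.4, 66.7, 40.1 and 48.0 CPM against 29.6, 34.2, 41.3 and 31.6 CPM (log2 change -0.65, SE 0.23, edgeR adjusted p = 0.187). Itgb3, a chain of the platelet fibrinogen receptor, was read at 229, 240, 158 and 206 CPM against 99.2, 138, 145 and 128 CPM. Ppbp and Itgb3 were without overlap, and for Pf4 replicate 7 overlapped 6-week replicate 3. Gp6, the collagen receptor of platelets, and Vwf, the clotting protein von Willebrand factor, overlapped in the same way (means 22.1 ± 5.47 and 11.1 ± 3.44 CPM for Gp6 and 74.4 ± 14.6 and 41.0 ± 9.49 CPM for Vwf). Of 13 genes 12 were negative with a median log2 change of -0.66, -0.62 without replicate 8, and 3 had no overlap (23.1%), 10 without TMM scaling (76.9%, against 6.68% of all genes). For the megakaryocyte and platelet list edgeR called 0 of 13 lower (10 at an unadjusted p under 0.05), DESeq2 4 and edgeR without replicate 8 0. The 12 largest negative changes under the rule for named genes held further genes known from platelets. Slc6a4 (chromosome 11, 76998603 to 77032340), the serotonin transporter, led them at 35.1, 25.1, 15.3 and 20.0 CPM against 7.51, 5.78, 11.9 and 10.1 CPM (log2 change -1.43, SE 0.31, edgeR adjusted p = 0.0934; -1.50 and 0.0314 without replicate 8). Mmrn1, a platelet granule protein, was read at 34.6, 36.0, 25.1 and 28.7 CPM against 10.6, 15.2, 22.6 and 15.8 CPM and Rab27b, a GTPase of platelet granules, at 33.7, 36.4, 22.6 and 28.0 CPM against 10.4, 14.9, 21.2 and 14.8 CPM. Slc6a4, Mmrn1 and Rab27b were without overlap by the rule that chose them.

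Red cell and neutrophil genes were uneven among the 10-week libraries. Hbb-bs, the main beta globin, named after its values were seen, was read at 4006, 4282, 2660 and 3192 CPM against 3614, 880, 8486 and 3838 CPM, with replicate 6 lowest and replicate 7 highest of the 8. Globin genes took 0.672, 0.715, 0.446 and 0.558% of counts at 6 weeks and 0.528, 0.132, 1.27 and 0.623% at 10 weeks (two-sided exact permutation p = 0.886). Car1, an erythroid carbonic anhydrase, was read at 121, 112, 119 and 68.7 CPM against 126, 167, 198 and 121 CPM. Ank1 and Rhag, red cell membrane genes, and Tspan33 had log2 changes of 0.36, 0.34 and 0.36 (edgeR adjusted p = 0.658, 0.626 and 0.561), and those of Ank1 and Rhag turned negative without replicate 7. Without that library the median of the erythroid list went from 0.22 to -0.25. Mpo and Ctsg, granule enzymes of neutrophil precursors, were read at 91.5, 85.4, 48.2 and 57.4 CPM against 34.8, 333, 95.9 and 35.3 CPM for Mpo and at 14.8, 14.0, 9.33 and 8.04 CPM against 5.90, 57.6, 17.1 and 5.75 CPM for Ctsg. Replicate 6 held the highest level of both, and without it the log2 changes were -0.35 for Mpo and -0.26 for Ctsg. Cxcr2 and Ly6g, neutrophil surface genes, overlapped (log2 changes -0.38 and -0.46, edgeR adjusted p = 0.529 and 0.680). No gene of the erythroid or neutrophil lists was called by edgeR, with or without replicate 8, or by DESeq2 (1 and 0 at an unadjusted p under 0.05), and none was without overlap.

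Metabolic genes had small positive changes. Aldoa and Pfkl, glycolytic enzymes, were read at 197, 192, 196 and 190 CPM against 282, 230, 219 and 216 CPM for Aldoa and at 64.5, 56.1, 60.0 and 64.7 CPM against 96.4, 65.7, 74.7 and 65.5 CPM for Pfkl, without overlap. Pkm, pyruvate kinase, was read at 258, 221, 249 and 223 CPM against 428, 312, 272 and 245 CPM, Slc16a3, a lactate exporter, at 13.5, 10.2, 10.7 and 9.14 CPM against 26.8, 23.0, 15.9 and 10.3 CPM, and Hk2, an inducible hexokinase, at 47.7, 34.1, 38.9 and 33.6 CPM against 61.0, 51.5, 53.0 and 36.9 CPM. In these 3 genes replicate 8 lay inside the 6-week range. Of 23 glycolysis genes 21 were positive, with a median log2 change of 0.27 and 3 without overlap (13.0%, and 1 without TMM scaling). For the glycolysis list edgeR called 0 of 23 higher (9 at an unadjusted p under 0.05), DESeq2 2 and edgeR without replicate 8 5. Slc2a1, the glucose transporter GLUT1, named after its values were seen, was read at 44.2, 47.7, 45.2 and 47.6 CPM against 48.8, 59.2, 42.2 and 48.1 CPM (log2 change 0.10, SE 0.09, edgeR adjusted p = 0.608). Among 25 genes of oxidative phosphorylation 24 were positive, at a median log2 change of 0.13. Leaving out TMM scaling shifts the median log2 change of all genes by -0.09, in the direction opposite to these small positive changes. Ndufv1 and Cox4i1 had no overlap at 73.5, 70.9, 74.5 and 72.5 CPM against 84.1, 82.2, 82.8 and 74.9 CPM for Ndufv1 and at 221, 206, 211 and 192 CPM against 270, 224, 230 and 222 CPM for Cox4i1. Without TMM scaling no gene of the list was free of overlap. Sdhc and Sdhd, of complex II, overlapped (log2 changes 0.21 and 0.18, edgeR adjusted p = 0.176 and 0.231; 0.26 and 0.0451 for Sdhc without replicate 8). For the oxidative phosphorylation list edgeR called 0 of 25 higher (5 at an unadjusted p under 0.05), DESeq2 0 and edgeR without replicate 8 1.

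Cell cycle genes overlapped between the ages. Mki67, a marker of dividing cells named after its values were seen, was read at 1474, 1049, 1159 and 1003 CPM against 1449, 746, 1776 and 1127 CPM, and Cdk1, a kinase that drives mitosis, at 90.4, 64.0, 67.2 and 52.4 CPM against 104, 61.3, 100 and 68.8 CPM, both lower in replicate 6 than in the other 10-week libraries. All 23 genes had positive changes with a median log2 change of 0.13, 0.02 without replicate 7, and edgeR called 0, with and without replicate 8 (0 at an unadjusted p under 0.05), and DESeq2 0. Aurkb, Tyms and Ccne1 overlapped (log2 changes 0.23, 0.27 and 0.25, edgeR adjusted p = 0.501, 0.540 and 0.554). Immediate early genes, which respond to stimulation within minutes and also to tissue handling, were uneven. Jun was read at 26.0, 23.3, 31.4 and 21.2 CPM against 80.5, 37.0, 58.9 and 26.1 CPM, highest in replicate 5, and Fos and Dusp1 were highest in replicate 6, at 3.85, 5.26, 5.02 and 4.17 CPM against 7.41, 29.8, 4.91 and 4.31 CPM for Fos and at 18.0, 18.9, 16.7 and 20.0 CPM against 23.4, 85.6, 22.3 and 22.3 CPM for Dusp1. Rgs1, a regulator of G protein signals in lymphocytes and 1 of the 12 largest positive changes, had the same highest library at 34.1, 28.3, 25.5 and 23.8 CPM against 47.8, 188, 47.0 and 36.7 CPM (log2 change 1.51, SE 0.51, edgeR adjusted p = 0.184). Without replicate 6 the log2 change of Rgs1 was 0.65. Atf3, a stress-induced factor, overlapped (log2 change 0.64, edgeR adjusted p = 0.199). For the immediate early and heat shock list edgeR called 0 of 12 higher (5 at an unadjusted p under 0.05), DESeq2 1 and edgeR without replicate 8 1, and 1 of 12 was without overlap (8.33%).

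The remaining large positive changes came from genes outside the lists, without overlap by the rule that chose them. Kif1a, a kinesin motor, was read at 2.83, 2.12, 3.87 and 2.15 CPM against 12.8, 6.95, 7.71 and 4.73 CPM (log2 change 1.54, SE 0.28, edgeR adjusted p = 0.0815; 1.73 and 0.00406 without replicate 8), and Slit2, a secreted guidance protein, at 2.66, 2.30, 2.82 and 3.13 CPM against 14.9, 5.40, 6.48 and 3.20 CPM (log2 change 1.45, SE 0.38, edgeR adjusted p = 0.118; 1.71 and 0.00995 without replicate 8), with replicate 5 highest in both. Fut1, a fucosyltransferase, was read at 3.37, 2.65, 3.68 and 2.21 CPM against 10.1, 9.49, 7.84 and 4.77 CPM, and Hid1, a protein of the Golgi and secretory granules, at 14.8, 14.2, 14.8 and 11.5 CPM against 38.1, 38.2, 31.9 and 16.8 CPM. Pycr1, an enzyme of proline synthesis, was read at 7.26, 5.57, 5.45 and 4.91 CPM against 20.4, 12.2, 11.1 and 7.55 CPM, and Egln3, an oxygen-dependent prolyl hydroxylase, at 4.16, 3.32, 3.73 and 3.13 CPM against 10.7, 9.67, 5.32 and 5.75 CPM. Replicate 8 was the lowest 10-week library for Kif1a, Slit2, Fut1, Hid1 and Pycr1 and second lowest for Egln3. edgeR adjusted p was 0.0934, 0.0815, 0.112 and 0.0934 for the last 4 genes, and 0.00887, 0.000974, 0.0137 and 0.0138 without replicate 8.

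The remaining large negative changes were of mixed kinds. Olfr164, an olfactory receptor gene, was read at 10.4, 15.2, 17.9 and 14.7 CPM against 3.97, 3.05, 7.59 and 10.1 CPM (log2 change -1.23, SE 0.31, edgeR adjusted p = 0.111; -1.57 and 0.00870 without replicate 8), and Trim30c, of the TRIM family, at 8.15, 7.12, 6.89 and 6.50 CPM against 2.30, 1.46, 4.12 and 5.63 CPM, in both with replicates 5 and 6 lowest. Kcnj5, a potassium channel, Ly6g6f, a membrane protein of the immunoglobulin superfamily known from platelets, and Cnga1, a cation channel, had log2 changes of -1.07, -1.10 and -1.05 (edgeR adjusted p = 0.160, 0.111 and 0.151). Upk3b and Msln, genes of the mesothelium that covers abdominal organs, were read at 4.56, 8.84, 6.31 and 8.28 CPM against 4.38, 2.96, 2.56 and 3.11 CPM for Upk3b and at 4.74, 7.60, 6.03 and 8.53 CPM against 4.59, 1.88, 3.05 and 3.71 CPM for Msln. Upk3b was highest in 6-week replicate 2 and lowest in 10-week replicate 7, and Msln was highest in 6-week replicate 4. Counts of pancreas and fat genes were highest in 6-week replicate 2: 6 genes of the exocrine pancreas summed to 418 counts there, 178 in 10-week replicate 7 and 5 to 10 in the others (8 in 6-week replicate 4), and 5 fat genes to 99 there and 5 to 31 in the others (13 in 6-week replicate 4). The part of such carried tissue in these 2 changes was not tested.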

How the data were processed

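Total spleen RNA was made into poly(A)-selected TruSeq v2 libraries, a kit without strand marking, per the labels. The values used are whole-number gene counts for 12 libraries in a single deposited table. Per the submitters' processing notes the tools were Bowtie2 2.2.0 and RSEM 1.2.12 on GRCm38, with no roles or rounding stated, so genes with close copies or antisense partners are uncertain. GENCODE M21 named 53620 of 53715 identifiers.

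Both untreated groups were compared with edgeR 4.0.16 in R 4.3.3 (TMM, filterByExpr, robust quasi-likelihood fit of all 12 libraries, Benjamini-Hochberg over 18542 genes, threshold 0.05). SE is the absolute log2 change over the square root of F. The fit was tested on simulated counts, and no pair of libraries in a group agreed within sampling noise. Named genes were the 12 largest positive and 12 largest negative changes among protein-coding genes without overlap whose average log2 CPM reached 2 (no antigen receptor segments or predicted genes), up to 4 members of each list by p, 17 fixed genes (some not reported here) and any call. Others are marked as named after their values were seen. The genes, lists and rule were chosen with earlier results of these data known. List means use log2(CPM + 0.5). Alternatives were DESeq2 1.42.0, limma 3.58.1 voom with quality weights, other size factors and filters, fits of untreated libraries only, removal of immunoglobulin genes, a fold change threshold of 1.5 and leaving out each library.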

Additional observations from a re-analysis of the deposited data

Results flagged for a closer look

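Single libraries far from the 3 others of their age were looked for in the named genes, shares and list means. 27 were found among 404 groups of 4, where chance alone gives about 1 in 20. Of these 11 were 6-week libraries, 6 were 10-week replicate 8, 6 replicate 6 and 4 replicate 5. Rgs13, Cr2 and Ighg1, flagged below, had been named after their values were seen. The number of flags was not tested against chance.

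10-week replicate 8 stood apart for Cxcr3 (21.0 CPM against 39.9 to 40.1 CPM in the others), Cd8b1 (4.14 CPM against 0.470 to 0.892 CPM), Rgs13 (30.0 CPM against 0.470 to 5.27 CPM) and Cr2 (957 CPM against 288 to 394 CPM). The same library had the most mitochondrial counts of its age (2.18% against 1.69 to 1.76%) and the lowest mean of the monocyte list (5.21 log2 CPM against 5.82 to 5.93 log2 CPM).

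10-week replicate 6 stood apart for Rgs1 (188 CPM against 36.7 to 47.8 CPM), Dusp1 (85.6 CPM against 22.3 to 23.4 CPM), Fos (29.8 CPM against 4.31 to 7.41 CPM) and Ctla4 (4.51 CPM against 3.11 to 3.29 CPM), was low for Mx1 (9.30 CPM against 23.2 to 25.9 CPM), and had the highest mean of the endosomal sensing list (6.55 log2 CPM against 6.37 to 6.38 log2 CPM). 10-week replicate 5 stood apart for Fas (40.6 CPM against 30.2 to 31.9 CPM), H2-Eb1 (1945 CPM against 1369 to 1386 CPM), Cox4i1 (270 CPM against 222 to 230 CPM) and, low, Tlr7 (188 CPM against 211 to 214 CPM).

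At 6 weeks replicate 1 was high for the type I interferon genes Mx2 (16.6 CPM against 9.39 to 9.90 CPM), Mx1 (47.9 CPM against 25.4 to 28.8 CPM) and Usp18 (38.8 CPM against 22.0 to 24.1 CPM) and for Tnfrsf4 (12.5 CPM against 10.2 to 10.4 CPM). Replicate 3 was high for Itgax (133 CPM against 108 to 109 CPM) and Ighg1 (1701 CPM against 210 to 391 CPM) and low in ribosomal protein genes (1.33% against 1.37 to 1.38% of counts). Replicate 4 was high for Lef1 (54.9 CPM against 33.1 to 35.8 CPM) and low for Hid1 (11.5 CPM against 14.2 to 14.8 CPM) and Car1 (68.7 CPM against 112 to 121 CPM). Replicate 2 had the lowest germinal centre list mean (5.20 log2 CPM against 5.47 to 5.48 log2 CPM).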

How the results depend on the processing

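The number of genes called with age depends on the processing. Against 1 gene, lower, in the fit of 12 libraries, DESeq2 called 682 (470 higher, 212 lower), no filter on low counts 102 (71 higher, 31 lower; 99 of the 102 were also tested with the filter), the 8 untreated libraries alone 0, the test against 1.5-fold 0, and the 7 untreated libraries other than 10-week replicate 8 500 (331 higher, 169 lower); the cause was not tested. With 1 library left out the counts ran from 0 to 1563 in all, 0 to 858 higher and 0 to 705 lower, the largest without 10-week replicate 8. Median-of-ratios factors, a filter of 1 CPM in 4 libraries, removal of immunoglobulin genes and voom each gave 1, lower. Genes without overlap above ran from 835 to 1710 with 1 library left out and those below from 770 to 1917 (675 and 616 in full), since fewer libraries overlap less; without TMM they were 311 and 1239. Differences in share, in percentage points, ran over the same fits from 4.26 to 6.12 for immunoglobulin genes, 2.33 to 3.57 for the 10 genes with most counts, -0.230 to -0.0657 for mitochondrial genes, -0.00583 to -0.00156 for T cell receptor genes, -0.170 to 0.208 for globin genes and -0.0304 to 0.0536 for ribosomal protein genes; the last 2 changed sign. With 3 against 4 libraries no exact permutation p can go below 0.0571. With 1 library left out the log2 changes ran from -0.26 to 1.22 for Ctsg, -0.35 to 1.13 for Mpo, -0.01 to 0.53 for Rhag, -0.03 to 0.59 for Ank1, -0.34 to 0.59 for Hbb-bs, -0.08 to 0.31 for Mki67, -0.08 to 0.04 for Ighd, -0.00 to 0.57 for Ighm, -0.85 to 0.05 for Ly6g and -0.13 to 0.03 for Tlr7. Signs turned without 10-week replicate 6 for Ctsg (-0.26) and Mpo (-0.35), without replicate 7 for Rhag (-0.01), Ank1 (-0.03), Hbb-bs (-0.34), Mki67 (-0.08) and Ighd (0.04), without replicate 5 for Ighm (-0.00), without 6-week replicate 1 for Ly6g (0.05) and Tlr7 (0.03), without 6-week replicates 2 or 4 for Ighd (0.00 and 0.02), and with voom for Ighm (-0.12). All other named genes kept their sign in every alternative that gave a value. Without TMM scaling the genes without overlap above went from 3 to 2 in the follicular helper list, 2 to 1 in the interferon gamma list and 1 to 0 in the germinal centre, MHC class II and immediate early lists, and those below from 1 to 2 in the type I interferon list. No paired analysis was possible because replicate numbers run on from 1 to 12 and no number is shared between groups.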

Other observations

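The T cell receptor segments and ribosomal protein genes, which belong to no list above, were also counted. Of 53 T cell receptor segments tested 39 had negative changes, with a median log2 change of -0.24, and 2 lay below without overlap (3.77%, against 3.32% of all genes). Their list mean was 1.08 to 1.35 log2 CPM at 6 weeks and 0.83, 1.23, 0.83 and 1.07 in 10-week replicates 5 to 8, below the 6-week range in replicates 5, 7 and 8. Of 77 cytosolic ribosomal protein genes 64 were positive, at a median log2 change of 0.09, and 8 lay above without overlap, 0 of them without TMM scaling. Stroma and endothelium genes held no gene without overlap among 14 tested, with a median log2 change of -0.05; Tlx1, the factor that forms the spleen, was read at 14.4, 18.6, 16.5 and 18.1 CPM against 10.3, 19.2, 13.1 and 15.1 CPM, Pecam1, an endothelial adhesion molecule, at 209, 236, 238 and 249 CPM against 170, 237, 182 and 220 CPM, Col3a1, a collagen chain, at 146, 180, 171 and 161 CPM against 186, 96.0, 136 and 118 CPM and Nkx2-5 at 1.90, 2.70, 2.82 and 2.64 CPM against 1.77, 2.35, 1.57 and 1.62 CPM.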
